A study of Homo sapiens with 6 samples.

Results

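The cytosolic heat shock and DNAJ chaperones were examined in NCI-H292 cells with and without CT45A1. Their probe sets were taken as those annotated to a single gene symbol that starts with HSPA, HSPB, HSPH, HSPD, HSPE, HSP90A, DNAJA, DNAJB, DNAJC or BAG followed by a digit, or that equals HSF1, HSF2 or HSPBP1. HSPA5, DNAJB9, DNAJB11 and DNAJC3, which serve the endoplasmic reticulum, were left out. This gave 179 probe sets of 75 gene symbols, out of 54613 probe sets other than controls with 19775 gene symbols. The 7 probe sets of HSP90AA1 and HSP90AB1, where a letter stands before the digit, are counted among them, and the other 172 fit the stems literally. The rule used no measured value. By textbook location the set is not wholly cytosolic. HSPD1, HSPE1, HSPA9, DNAJA3, DNAJC15 and DNAJC19 are mitochondrial proteins, and HSPA13, DNAJB14, DNAJC1 and DNAJC10 belong to the endoplasmic reticulum. This list is not complete.

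NCI-H292 is a human lung cancer cell line. The CT45A1-overexpression group, with 3 arrays, consisted of cells stably carrying a construct of CT45A1, a cancer/testis antigen, joined to the fluorescent protein Venus. The CT45A1-negative group, also with 3 arrays, carried the Venus vector, so both groups held Venus, and both were grown in DMEM with fetal bovine serum. The labels do not say whether a group was 1 clone or a pool, nor whether its replicates came from different cultures. The p-values therefore describe array-to-array spread, part or all of which may be technical.

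Molecular chaperones keep proteins soluble and help them to fold. HSP70 proteins bind exposed hydrophobic stretches of a client in a cycle driven by ATP. DNAJ proteins bring clients to HSP70 and stimulate its ATPase through their J domain, and nucleotide exchange factors such as the HSP110 proteins, the BAG proteins and HSPBP1 make HSP70 let go of the client. HSP90 takes over partly folded clients, many of them kinases and steroid receptors. Small heat shock proteins hold unfolded proteins without ATP. Heat shock factor 1 (HSF1) raises many of these genes in stressed cells, and tumour cells often carry high chaperone levels.

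HSF1 binds heat shock elements, arrays of the unit NGAAN in alternating orientation. The promoter windows in RefSeq (GRCh38.p14) run from 250 bases before to 50 bases after each gene's start, and 66 of the 75 gene symbols had at least 1, with 90 windows in all. They were searched on both strands for a pair of units, GAANNTTC or TTCNNGAA, each of which is its own reverse complement. At least 1 pair was present in 21 of the 90 windows (23.3%), from 20 genes, against 4737 of the 35116 windows of the whole table (13.5%). The longer form has 3 units, read either as GAA, TTC, GAA or as its reverse complement TTC, GAA, TTC, with 2 bases between neighbouring units, and it contains both pairs. It was present in 6 windows (6.67%), those of HSP90AA1, HSP90AB1, HSPA6, HSPD1, DNAJA1 and DNAJB6, against 172 of all windows (0.490%). A match is a description of these letters and does not show a bound site. The windows of HSPA4 and DNAJC12 had no match to any of these forms.

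The stretches around the matches are printed for the HSP90 genes, HSPB1 and HSPB8, whose values are described first, and for HSPA6, HSPD1 and DNAJB6 as further cases of the longer form. All read 5′ to 3′ on the gene's own strand. Capitals mark the 3-unit matches and, for HSPB1 and HSPB8, 1 pair; the HSP90AA1 stretch holds a further pair, left in lower case.
HSP90AA1: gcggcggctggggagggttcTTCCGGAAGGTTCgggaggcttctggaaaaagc
HSP90AB1: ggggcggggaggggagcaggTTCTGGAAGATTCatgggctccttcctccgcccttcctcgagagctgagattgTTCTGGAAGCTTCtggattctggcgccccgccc
HSPB1: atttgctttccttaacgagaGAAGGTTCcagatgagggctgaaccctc
HSPB8: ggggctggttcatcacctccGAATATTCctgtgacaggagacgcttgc
HSPA6: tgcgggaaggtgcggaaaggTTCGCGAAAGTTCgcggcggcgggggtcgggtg
HSPD1: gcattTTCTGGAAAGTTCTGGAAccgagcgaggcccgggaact
DNAJB6: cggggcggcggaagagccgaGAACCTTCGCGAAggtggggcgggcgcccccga
In GRCh38.p14 these lie at chr14:102087100-102087152 on the minus strand for HSP90AA1, chr6:44247758-44247863 on the plus strand for HSP90AB1, chr7:76302471-76302518 on the plus strand for HSPB1 and chr12:119178823-119178870 on the plus strand for HSPB8. The others lie at chr1:161524446-161524498 (plus) for HSPA6, chr2:197500048-197500090 (minus) for HSPD1 and chr7:157336853-157336905 (plus) for DNAJB6. Each lies upstream of its gene's annotated start. HSP90AB1 holds 2 separate copies of the 3-unit form, whereas the window of HSPB1 holds 1 pair, that of HSPB8 holds 2 pairs of which 1 is printed, and neither holds the 3-unit form.

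Signals are on the linear MAS5 scale, with 1 intensity for each probe set and array. CT45 signal, which the probe set cannot assign to 1 member of the family, was 518, 700.1 and 445 on the CT45A1-overexpression arrays, against 23.1, 15.8 and 1.95 on the CT45A1-negative arrays. The median signal of an array lay between 79.2 and 83.3 in the overexpression group and between 72.6 and 75.6 in the negative group, a shift of 0.145 on the log2 scale. The actin 3′/5′ ratio, a measure of RNA integrity and labelling, was 1.42 to 1.55 in overexpression cells, against 1.64 to 1.91 in negative cells, so it moved with the groups. All 6 epithelial markers examined were tested, and 1 of them, KRT18, fell by 0.25 on the log2 scale (limma adjusted p = 0.0393). The summed signal of 3 leukocyte markers was 227 to 333 in overexpression cells, against 174 to 278 in negative cells. That of 3 endothelial markers was 370 to 445 in overexpression cells and 252 to 321 in negative cells. That of 3 fibroblast markers was 87.5 to 155 in overexpression cells and 53.3 to 93.7 in negative cells, and that of the 6 epithelial markers 72915 to 74015 in overexpression cells and 74465 to 81213 in negative cells. The part of these markers in the results below was not tested. In bulk RNA, fewer cells with a transcript and less of it per cell cannot be told apart.

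Testing was restricted to probe sets brighter than the median of the array on 3 or more of the 6 arrays. Of the 179 chaperone probe sets, 134 from 58 genes passed, and 45 did not. Passing depends on signal in either group, so the tested probe sets are not a random part of the set. The 17 genes with no tested probe set were HSPA6, HSPA12B, HSPB2, HSPB3, HSPB6, HSPB7, HSPB9, DNAJB7, DNAJB8, DNAJC5B, DNAJC5G, DNAJC28 and 5 antisense or divergent transcripts. HSPA6, an HSP70 that is strictly heat-induced in human cells, was dim on both of its probe sets, with mean log2 signals of 5.71 and 5.61 with CT45A1 and 5.71 and 5.67 without it. HSF2 was not analysed here.

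Of the 134 tested probe sets, 5 (3.73%) passed an adjusted p of 0.05 (limma, Benjamini-Hochberg over all 27618 tested probe sets), and all 5 were higher with CT45A1. Across the array 892 probe sets (3.23%) passed, 522 of them higher (1.89%) and 370 lower (1.34%), so the chaperones' share was close to the background. The 5 belonged to HSPB1, HSPB8, HSP90AB1, HSPA4 and DNAJC12. The median log2 difference, overexpression minus negative, was 0.021 over the tested chaperone probe sets and 0.033 over all tested probe sets. Differences ran from -0.68 to 1.13, with 71 above and 63 below 0. The upper end was a dim DNAJC9 probe set whose negative signals lay below the array median.

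With the 5 included, 60 chaperone probe sets (44.8%) had all 3 arrays of one group above all 3 of the other, against 26.6% of all tested probe sets. Overexpression was the higher group in 34 of them and the lower group in 26, against 15.2% and 11.4% of all tested probe sets. At an unadjusted p of 0.05 there were 45 (33.6%), 27 higher and 18 lower, against 20.7% of all tested probe sets (12.2% higher and 8.5% lower). The chaperones were bright, with a median log2 signal of 9.84 to 9.91 on the overexpression arrays and 9.78 to 9.82 on the negative arrays, where the array medians were 6.31 to 6.38 with CT45A1 and 6.18 to 6.24 without it. The part of brightness in these shares was not tested.

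**Figure D1:**
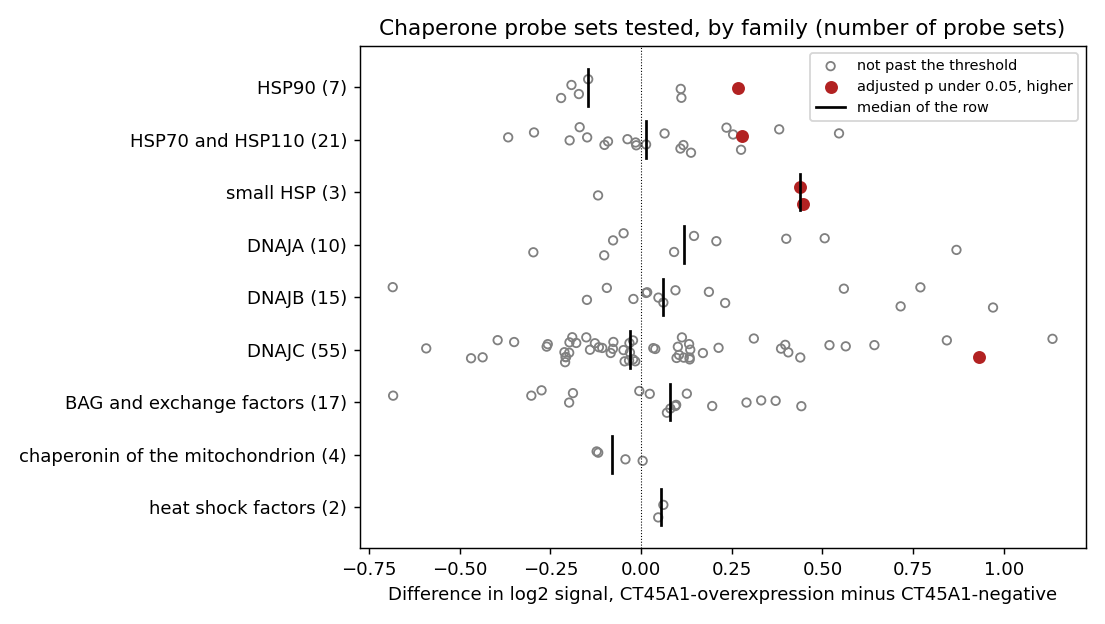
Difference in log2 signal (overexpression minus negative) for each tested chaperone probe set, 1 row per family, with the number of probe sets in parentheses. Filled points passed an adjusted p of 0.05, open points did not, and bars mark row medians. The 5 filled points all lie to the right of 0, and every row except that of HSF1 holds points on both sides of 0.

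The direction of the calls depended on how arrays were brought to a common scale. Scaling by quantile normalization gave 4 higher and 2 lower, and cyclic loess gave 5 higher and 2 lower. Centring each array on its median gave 3 higher and 25 lower. In that order, 2.82%, 2.81% and 10.8% of all tested probe sets passed, against 3.23% as reported. Centring moved the median difference of all tested probe sets to -0.112 and that of the chaperones to -0.124, so the 2 medians stayed close to each other. With the actin 3′/5′ ratio included in the model, 5 passed again, against 2.54% of all tested probe sets. Only HSPB1 was shared with the 5 above. At 1 probe set per gene, the brightest, 4 of 58 chaperone genes passed, against 3.84% of all genes, and with the mean of each gene's probe sets 3 of 58 passed, against 2.84%.

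Among the small heat shock proteins, HSPB1 and HSPB8 were higher with CT45A1. HSPB1 (HSP27), a widely expressed holdase that also binds actin, had signals of 3211, 3451 and 3095 on the overexpression arrays, against 2318, 2172 and 2687 on the negative arrays at its single tested probe set. Every overexpression array lay above every negative array. The mean log2 signal was 11.67 ± 0.080 with CT45A1 and 11.22 ± 0.16 without it (SD, n = 3 each), and the rise was 1.36-fold, or 0.45 on the log2 scale (SE 0.090, limma adjusted p = 0.0291). It also passed with the actin ratio as a covariate (adjusted p = 0.0348) and after centring (adjusted p = 0.0482).

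HSPB8, which works with BAG3 to deliver misfolded proteins to autophagy, gave 843, 858 and 808 in overexpression cells, against 629, 566 and 658 in negative cells at its brighter probe set. Again the groups did not overlap, and the rise was 0.44 (SE 0.10, limma adjusted p = 0.0425), or 1.36-fold. A second, dim HSPB8 probe set gave 43.3, 91.3 and 134 with CT45A1 and 54.6, 84.3 and 147 without it. Its arrays overlapped and spread widely within both groups, with a difference of -0.12 (95% interval -1.20 to 0.96). The adjusted p of the brighter probe set was 0.0882 after centring and 0.127 with the actin covariate. It was 0.0634 after quantile normalization and 0.0632 after cyclic loess. BAG3, the partner of HSPB8, had 4783, 4953 and 4799.5 with CT45A1 and 5016, 4923 and 4650.1 without it, a difference of -0.0047 (95% interval -0.14 to 0.13). The remaining small heat shock genes were below the filter.

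**Figure D2:**
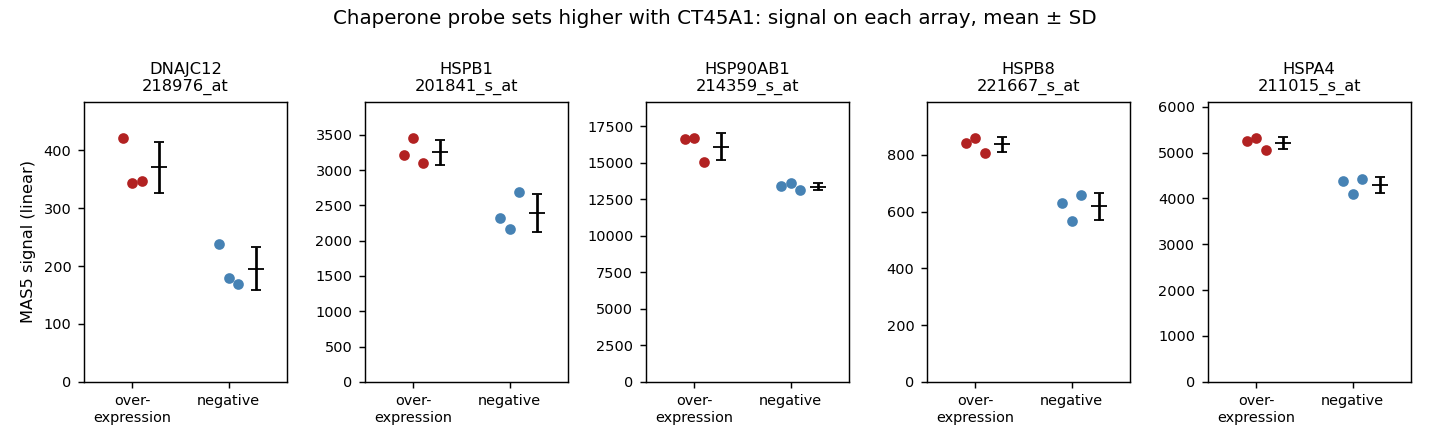
MAS5 signal (linear axis from 0) of the 5 chaperone probe sets past an adjusted p of 0.05, each on its own axis, with CT45A1-overexpression arrays on the left and CT45A1-negative arrays on the right. Points are arrays and bars are means with SDs over 3 arrays; in each panel all overexpression points lie above all negative points.

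HSP90AB1 rose at 1 of 3 probe sets, and HSP90AA1 passed at none of 4. HSP90AB1 encodes the constitutive cytosolic HSP90 beta and HSP90AA1 the stress-inducible HSP90 alpha. At the dimmest of its 3 probe sets, HSP90AB1 signals were 16643, 16679 and 15027 in overexpression cells, against 13403, 13586 and 13129 in negative cells. All overexpression arrays lay above the negative ones, and the rise was 0.27 (SE 0.059, limma adjusted p = 0.0411), or 1.2-fold. The other HSP90AB1 probe sets, both brighter, differed by 0.11 (adjusted p = 0.314) and 0.11 (adjusted p = 0.283), and their arrays overlapped. The rise at the dimmest probe set did not pass after centring (adjusted p = 0.211) or with the actin covariate (adjusted p = 0.408). It passed after quantile normalization, at 0.32 (adjusted p = 0.0067), and after cyclic loess, at 0.37 (adjusted p = 0.00851). After cyclic loess a brighter HSP90AB1 probe set also passed, at 0.22 (adjusted p = 0.0359).

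All 4 HSP90AA1 probe sets had lower signal on every overexpression array than on every negative array, and none passed the threshold. At the probe set with the most negative difference the signals were 22673, 24793 and 21905 in overexpression cells, against 26997, 27887 and 25854 in negative cells. Its difference was -0.22 (SE 0.061, 95% interval -0.36 to -0.085, adjusted p = 0.0802). The other 3 differed by -0.19 (adjusted p = 0.102), -0.17 (adjusted p = 0.119) and -0.15 (adjusted p = 0.175). In all tested probe sets, 11.4% had every overexpression array below every negative array, and the 4 here share a target and so are not independent. Each of the 4 stayed below 0 under every setting tried, but the size depended on the scaling. Their median was -0.18 as reported, -0.079 after quantile normalization and -0.058 after cyclic loess. After centring it was -0.33 and all 4 passed as lower, when the first probe set differed by -0.37 (SE 0.064, adjusted p = 0.00775). Of all tested probe sets, 10.8% passed after centring, against 3.23% as reported. Both HSP90 genes have closely similar copies in the genome, so signal from related transcripts cannot be told apart at these probe sets.

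**Figure D3:**
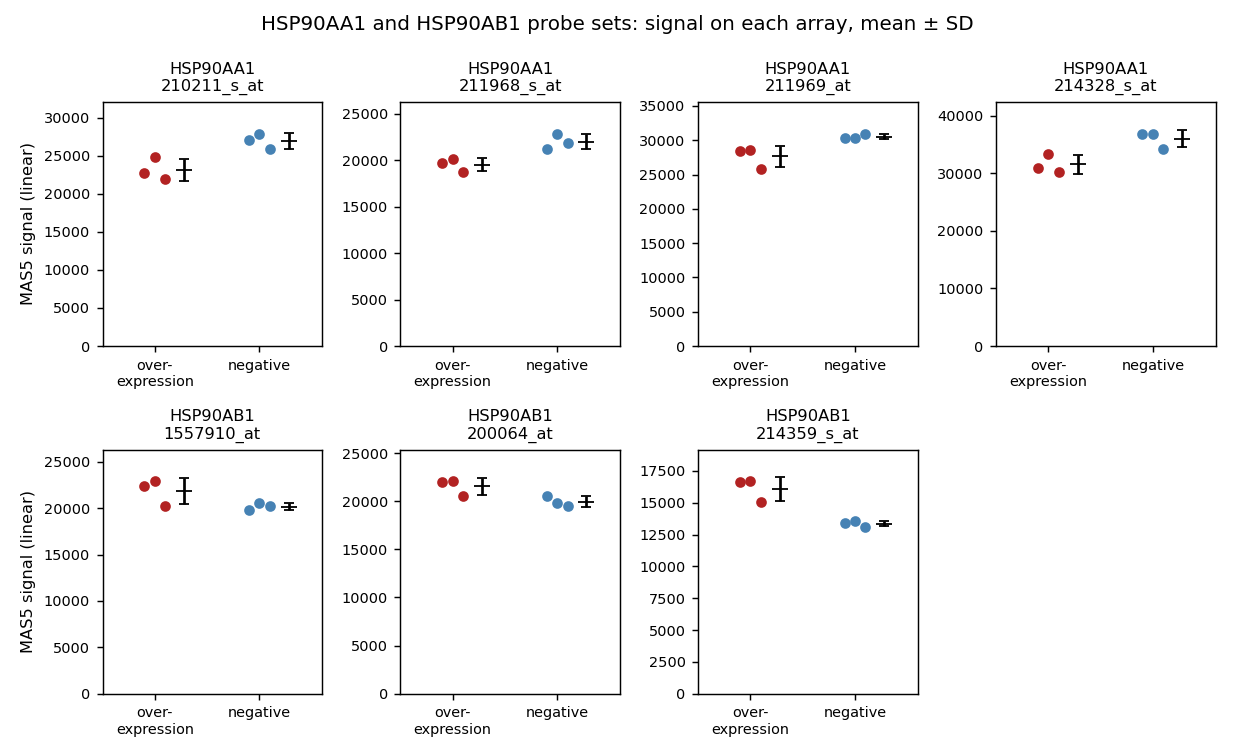
MAS5 signal (linear axes from 0) at the 4 HSP90AA1 and 3 HSP90AB1 probe sets, with CT45A1-overexpression arrays on the left and CT45A1-negative arrays on the right of each panel. Points are arrays and bars are means with SDs over 3 arrays; the overexpression points lie below the negative points in all 4 HSP90AA1 panels and above them in 1 HSP90AB1 panel.

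Of the HSP90 cochaperones, 12 of 13 were tested at their brightest probe set, and 1, CDC37, rose. Over all tested probe sets 3.23% passed (1.89% higher). CDC37 brings protein kinases to HSP90. Its signals were 1840.0, 1574 and 1698 in overexpression cells, against 929, 1094 and 1213 in negative cells. All overexpression arrays were higher, and the rise was 0.67 (SE 0.11, limma adjusted p = 0.0143), or 1.59-fold. The other 11 did not pass, and the median of the 12 was 0.019 (-0.13 after centring). FKBP5, an immunophilin of steroid receptor complexes, differed by -0.27 (adjusted p = 0.169) and CHORDC1, a heat-induced HSP90 partner, by -0.20 (adjusted p = 0.181).

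In the HSP70 and HSP110 families, 21 probe sets of 9 genes were tested, 11 above and 10 below 0. Of these 1 rose, where 3.23% of all tested probe sets passed (1.89% higher). The probe set that rose measures HSPA4, an HSP110 protein that acts as an exchange factor for HSP70. At its brightest probe set the signals were 5247, 5310.4 and 5053 in overexpression cells, against 4370.2, 4086 and 4421 in negative cells. Every overexpression array was the higher, and the rise was 0.28 (SE 0.063, limma adjusted p = 0.0435), or 1.21-fold. Its adjusted p was 0.232 after centring and 0.151 with the actin covariate, and 0.0233 after quantile normalization and 0.0235 after cyclic loess. Of the other HSPA4 probe sets, a pair differed by 0.25 (adjusted p = 0.114) and 0.24 (adjusted p = 0.271), with all overexpression arrays higher, and one differed by -0.013 (adjusted p = 0.941). HSPA4L, a close relative, was higher on every overexpression array at both of its probe sets, by 0.12 (adjusted p = 0.334) and 0.14 (adjusted p = 0.321), and below 0 at both after centring.

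HSPH1 (HSP105), the heat-inducible HSP110 protein, lay below 0 at all 3 tested probe sets, as under each other scaling. At the second brightest its signals were 3416, 3199.9 and 3442 in overexpression cells, against 3667, 4079 and 3786 in negative cells. Overexpression was lower on every array there, with a difference of -0.20 (SE 0.070, adjusted p = 0.148). The brightest HSPH1 probe set differed by -0.15 (adjusted p = 0.384), and with the actin covariate by -0.52 (SE 0.095, adjusted p = 0.0227), which passed.

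HSPA2, an HSP70 best known from spermatogenic cells, had signals of 415, 350.0 and 299 in overexpression cells, against 306, 201 and 228 in negative cells. The groups overlapped by 1 array, and the difference was 0.55 (95% interval 0.13 to 0.96, adjusted p = 0.14). HSPA14, an HSP70 of the ribosome-associated complex, differed by -0.015 to -0.091 at its 3 probe sets. HSPA9 (mortalin), the mitochondrial HSP70, differed by -0.10 at its brightest probe set (adjusted p = 0.422). Its other probe sets took both signs, at -0.17 (adjusted p = 0.252), 0.014 (adjusted p = 0.955) and 0.38 (adjusted p = 0.571). The one at -0.17 passed as lower after centring, at -0.31 (adjusted p = 0.0406). HSPA1L, whose gene lies beside the inducible HSP70 genes, had 138, 85.1 and 142 in overexpression cells, against 181, 122 and 161 in negative cells (difference -0.37, adjusted p = 0.472).

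The inducible HSP70 genes HSPA1A and HSPA1B and the constitutive HSPA8 were measured here only by probe sets that name several genes, and these were not counted among the 179. The brightest probe set shared by HSPA1A and HSPA1B gave 15099, 14812 and 12543 in overexpression cells, against 18778, 14779.5 and 15734 in negative cells. Its arrays overlapped, and the difference was -0.21 (95% interval -0.43 to 0.0021, adjusted p = 0.246). A second shared probe set differed by 0.021 (adjusted p = 0.93), and one that also names HSPA1L by 0.075 (adjusted p = 0.545). The 4 probe sets that name HSPA8 with the small nucleolar RNAs SNORD14C and SNORD14D differed by -0.10 to 0.022.

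The DNAJA proteins, which resemble bacterial DnaJ most closely, had 10 tested probe sets, 6 above and 4 below 0, and none passed (limma). At an unadjusted p of 0.05 there were 5, against 20.7% of all tested probe sets. DNAJA4 was above 0 at all 4 probe sets, and at 3 of 4 under each other scaling. At the second brightest it had signals of 693, 809 and 719 in overexpression cells, against 574, 597 and 512 in negative cells, a difference of 0.40 without overlap (SE 0.11, adjusted p = 0.0775). DNAJA3 (Tid1), the mitochondrial DNAJA, was above 0 at both probe sets, with 0.21 at the brighter one (adjusted p = 0.151). The larger difference was at the dimmer one, with 1396, 1138 and 1679.8 in overexpression cells, against 672, 587 and 1109.9 in negative cells. The groups did not overlap, although negative array 3 stood well above the other negative arrays (difference 0.87, SE 0.22, adjusted p = 0.0589). That probe set passed in several alternatives, with 0.72 after centring (adjusted p = 0.046) and 1.75 with the actin covariate (adjusted p = 0.00675). DNAJA1, a farnesylated cytosolic cochaperone, differed by -0.077 (adjusted p = 0.467) and -0.10 (adjusted p = 0.385). DNAJA2 was below 0 at both probe sets, at -0.048 with overlap at the brighter one (adjusted p = 0.854). At the dimmer one the groups did not overlap, and the difference was -0.30 (adjusted p = 0.0912).

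For the DNAJB proteins, 15 probe sets of 8 genes were tested, 11 above and 4 below 0, and none passed (limma), with 5 at an unadjusted p of 0.05 (20.7% of all tested). DNAJB2, which carries ubiquitin-interacting motifs and steers clients to the proteasome, had 861, 656 and 618 in overexpression cells, against 398, 567 and 349 in negative cells. All overexpression arrays were higher, by 0.72 on average (SE 0.19, adjusted p = 0.0672). DNAJB6, a suppressor of polyglutamine aggregation whose promoter stretch is printed above, had 1859, 1819 and 1854 in overexpression cells, against 1623, 1589 and 1501 in negative cells. Again every overexpression array was higher, with a difference of 0.23 (SE 0.073, adjusted p = 0.116). Brighter probe sets that name DNAJB6 together with TMEM135 were not counted as members. One differed by -0.069 with overlap (adjusted p = 0.648) and one by 0.22 without overlap (adjusted p = 0.178). DNAJB1 (HSP40), the main heat-inducible DNAJ protein, differed by 0.017 (95% interval -0.12 to 0.16) and 0.014 (95% interval -0.17 to 0.19) at its 2 probe sets. DNAJB4 differed by 0.19 at its brightest probe set (adjusted p = 0.292) and DNAJB14, a membrane protein of the endoplasmic reticulum, by -0.15 (adjusted p = 0.443). DNAJB13, a protein of sperm flagella and motile cilia, was dim without CT45A1, with 147, 116 and 74.1 in overexpression cells, against 75, 36.4 and 61.2 in negative cells. Its arrays overlapped by 1 (adjusted p = 0.208), and with negative signals near or below the array median the difference of 0.97 is not an exact size.

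The DNAJC proteins, the most varied class, gave 55 tested probe sets of 23 genes, 24 above and 31 below 0. Of these 1 rose, where 3.23% of all tested probe sets passed (1.89% higher). DNAJC12, a cochaperone that helps to fold the aromatic amino acid hydroxylases, had 421, 343 and 348 in overexpression cells, against 238, 179 and 169.6 in negative cells at its brighter probe set. The mean log2 signal was 8.53 ± 0.16 with CT45A1 and 7.60 ± 0.26 without it (SD, n = 3 each). The groups did not overlap, and the rise was 0.93 (SE 0.17, limma adjusted p = 0.0219), or 1.91-fold. Its second probe set gave 188, 197 and 148 in overexpression cells, against 113, 106 and 79.2 in negative cells, also without overlap (difference 0.84, adjusted p = 0.0873). The first probe set passed after centring (adjusted p = 0.0191) and did not pass with the actin covariate (adjusted p = 0.319).

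DNAJC27, a RAB-like GTPase with a J domain, was higher on every overexpression array at both probe sets. The differences were 0.52 (adjusted p = 0.102) and 0.64 (adjusted p = 0.0858). DNAJC15, a protein of the inner mitochondrial membrane, was below 0 at all 3 probe sets under every scaling. At the brightest it had 6306, 5995 and 5903 in overexpression cells, against 6830.0, 7176 and 6752 in negative cells. Every overexpression array was lower, at -0.19 (SE 0.060, adjusted p = 0.117), and the next brightest differed by -0.35 (adjusted p = 0.107). DNAJC21, which takes part in ribosome assembly, differed by -0.045 at its brightest probe set and by -0.59 (adjusted p = 0.0604) at a dimmer one. That dimmer probe set had 269, 261 and 206 in overexpression cells, against 392, 351 and 361 in negative cells. It passed as lower under each other scaling, at -0.68 after quantile normalization (adjusted p = 0.0399), -0.68 after cyclic loess (adjusted p = 0.0401) and -0.74 after centring (adjusted p = 0.0131). DNAJC10, a disulfide reductase of the endoplasmic reticulum, differed by -0.18 to 0.13 over 4 probe sets.

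DNAJC9, a histone chaperone, differed at its brightest probe set by -0.030 (adjusted p = 0.883) and at the next brightest by -0.20 (adjusted p = 0.166). The dimmest had 84.2, 121 and 100 in overexpression cells, against 52.3, 32.6 and 56.5 in negative cells. Its negative signals lay below the array median, so it passed the filter only through the overexpression arrays. The difference of 1.13 (adjusted p = 0.133) is therefore not an exact size. Of the 42 genes with several tested probe sets, 16 had all of them above 0, 9 had all below 0 and 17 had both signs.

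BAG proteins and HSPBP1 bind HSP70, and several of them release its clients by nucleotide exchange. Of their 17 tested probe sets, 11 were above and 6 below 0, and none passed (limma), with 8 at an unadjusted p of 0.05, against 20.7% of all tested probe sets. BAG5 had 2688, 2522 and 3012 in overexpression cells, against 3240.2, 3429 and 3444 in negative cells at its brightest probe set. Overexpression was lower on every array (difference -0.30, SE 0.080, adjusted p = 0.0699). That probe set passed as lower in 3 of 16 alternatives, with -0.45 after centring (adjusted p = 0.0138). The other BAG5 probe sets differed by -0.19 (adjusted p = 0.167) and 0.024 (adjusted p = 0.951). BAG4, first known as a silencer of death domains, had 1405, 1295 and 1371 in overexpression cells, against 1741, 1637 and 1548 in negative cells (difference -0.27, adjusted p = 0.0996). At a dimmer probe set BAG4 had 188, 154 and 135 in overexpression cells, against 240.4, 254 and 265 in negative cells. That difference was -0.68 (adjusted p = 0.0681), and it passed after quantile normalization, at -0.81 (adjusted p = 0.0385), after cyclic loess, at -0.80 (adjusted p = 0.0399), and after centring, at -0.83 (adjusted p = 0.0161). Another dim BAG4 probe set lay at 0.33 (adjusted p = 0.474). HSPBP1 had 911, 907 and 722 in overexpression cells, against 495, 699 and 688 in negative cells, without overlap (difference 0.44, adjusted p = 0.136). BAG1 and BAG6, the second of which guards membrane proteins on their way to insertion, were above 0 at all 3 probe sets each, by 0.095 to 0.20 and by 0.081 to 0.29. After centring only 1 of the 3 stayed above 0 for each.

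The mitochondrial chaperonin HSP60 (HSPD1) and its lid HSP10 (HSPE1) are made from neighbouring genes. At the brightest HSPD1 probe set the signals were 31679, 33372 and 30279.5 in overexpression cells, against 35016, 34729 and 33638 in negative cells. For HSPE1 they were 13736, 13502 and 12131 in overexpression cells, against 14747, 14292 and 13765 in negative cells. Neither pair of groups overlapped, and each differed by -0.12, with adjusted p = 0.243 for HSPD1 and 0.303 for HSPE1. Another bright HSPD1 probe set differed by 0.0046 (95% interval -0.13 to 0.14). HSF1 itself had signals of 236, 141 and 262 with CT45A1 and 177, 225 and 192 without it. Its groups overlapped, and the difference was 0.062 (95% interval -0.47 to 0.59).

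**Figure D4:**
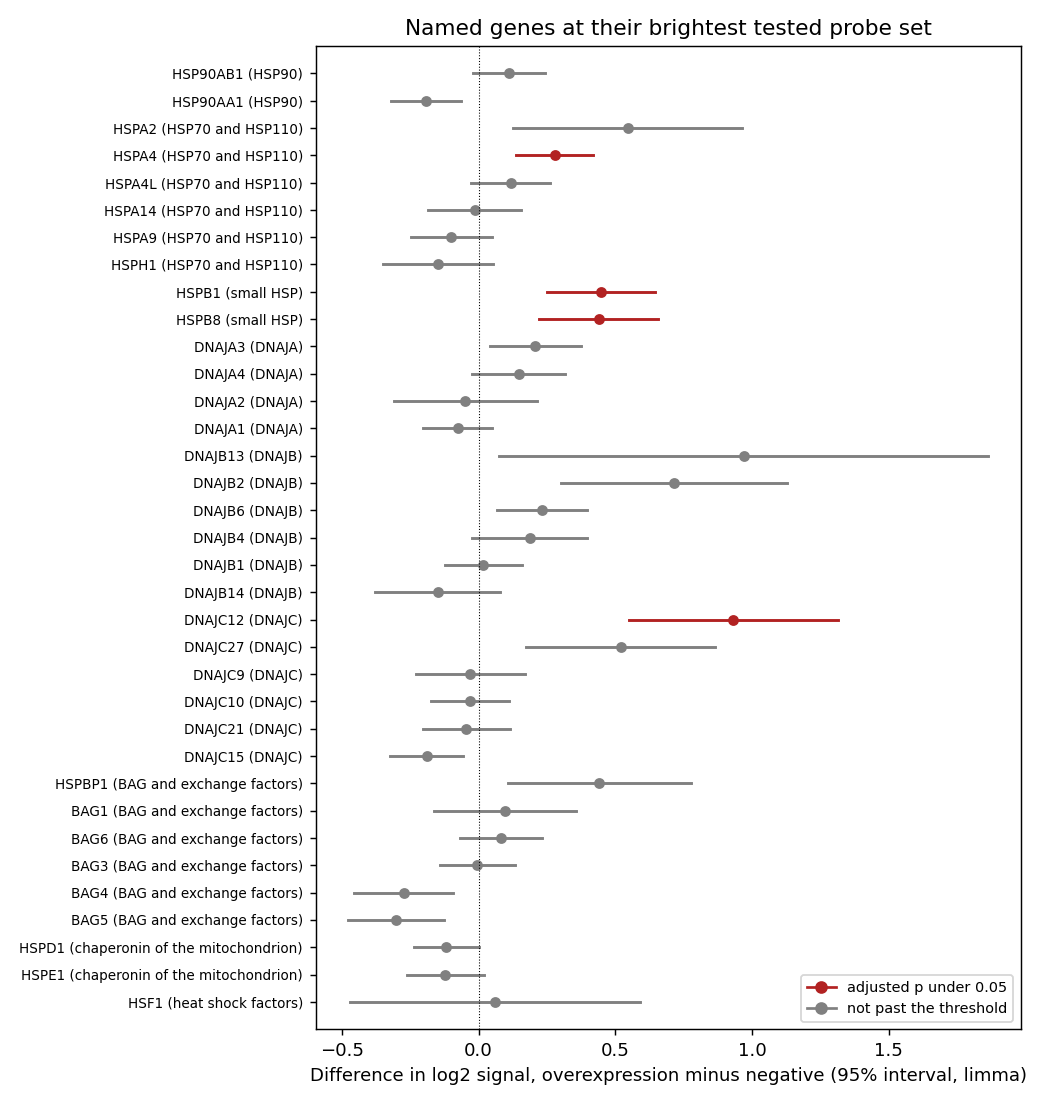
Difference in log2 signal (overexpression minus negative) with limma's 95% interval for the 35 named chaperone genes, each at its brightest tested probe set and ordered by family. The intervals of HSPB1, HSPB8, HSPA4 and DNAJC12 are coloured as past an adjusted p of 0.05; HSP90AB1 is not, since its called probe set is not its brightest.

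Related chaperone systems were counted at 1 probe set per gene. Of the CCT chaperonin, which folds actin and tubulin in the cytosol, 7 of 8 subunits were tested. None passed (limma), with 2 at an unadjusted p of 0.05 (20.7% of all tested), and all 7 lay below 0, with a median of -0.094. In 5 every overexpression array was below every negative array, as in 11.4% of all tested probe sets. After quantile normalization 5 of 7 lay below 0 and after cyclic loess 4 of 7. CCT4, the member with the most negative value, differed by -0.13 (adjusted p = 0.206), and a second CCT2 probe set lay at 0.25 (adjusted p = 0.0643). For prefoldin, which hands actin and tubulin to CCT, 5 of 6 subunits were tested. None passed (limma), with 2 at an unadjusted p of 0.05. Of the 5, 4 lay below 0 (all 5 after centring), the median was -0.14, and PFDN1 differed by -0.22 (adjusted p = 0.14). All 6 mitochondrial partners of the HSP70 and HSP60 systems were tested and none passed (limma), with 0 at an unadjusted p of 0.05 and GRPEL2 at -0.14 (adjusted p = 0.375). Other heat-induced genes numbered 5 tested, of which none passed (limma) and 0 were at an unadjusted p of 0.05, with CRYAB at 0.43 (adjusted p = 0.408) and UBB at -0.10 (adjusted p = 0.274).

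Of 7 chaperones of the endoplasmic reticulum, 1 rose, where 3.23% of all tested probe sets passed (1.89% higher). The median of the 7 was 0.031 (-0.11 after centring). HYOU1, the HSP110-like exchange factor of that compartment, had 5898, 5852 and 5406 in overexpression cells, against 4543, 4888 and 4625 in negative cells. The groups did not overlap (difference 0.29, SE 0.065, limma adjusted p = 0.0435). For HYOU1, as for CDC37, the adjusted p under the other settings is not given here. HSPA5 (BiP), the HSP70 partner of HYOU1, differed by -0.050 (adjusted p = 0.637).

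The 5 chaperone rises kept their sign in every alternative where they were tested. HSPB1 and DNAJC12 passed in 10 of 16 alternatives each, HSPA4 and HSP90AB1 in 7 and HSPB8 in 5. Leaving out 1 array moved the number of chaperone calls to between 0 and 6. There were 0 without overexpression array 1 and 0 without overexpression array 2, 1 without negative array 1 and 1 without negative array 2. There were 2 without overexpression array 3 and 6 without negative array 3. In that order, 0.818%, 0.589%, 0.944%, 1.48%, 1.7% and 4.33% of all tested probe sets passed, so calls over the whole array moved too. The adjusted p without 1 array ran from 0.0106 to 0.129 for HSPB1 and from 0.0288 to 0.0941 for DNAJC12. It ran from 0.0445 to 0.167 for HSPA4, from 0.0206 to 0.161 for HSP90AB1 and from 0.0365 to 0.161 for HSPB8.

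**Figure D5:**
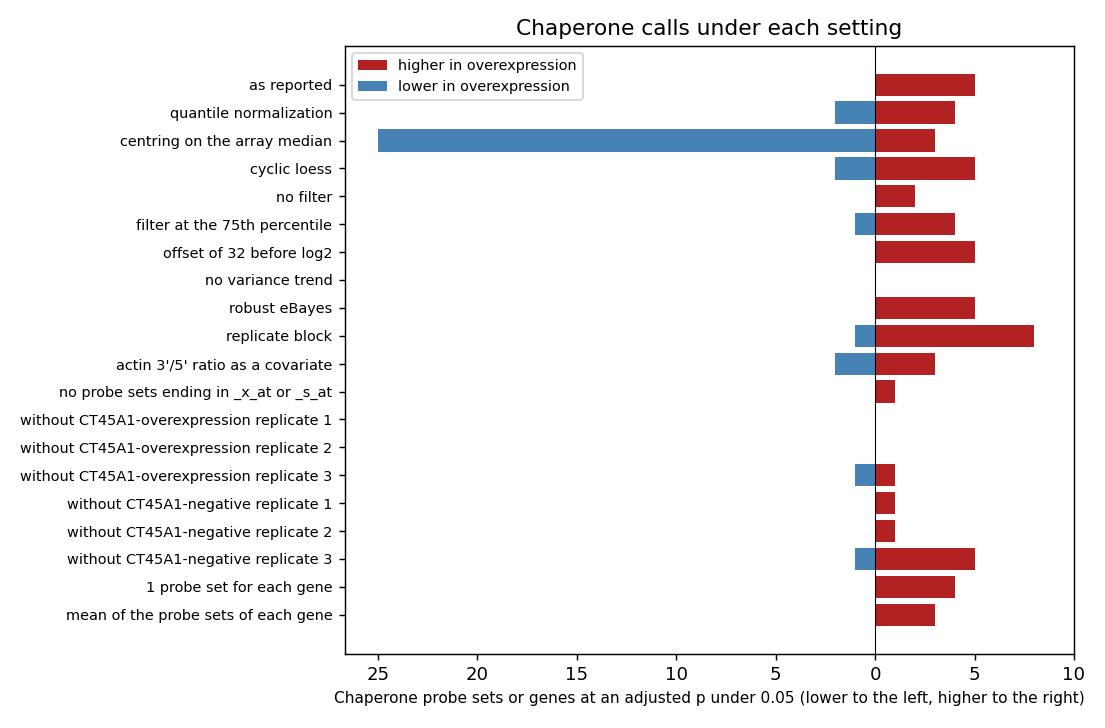
Number of chaperone probe sets (genes in the last 2 rows) past an adjusted p of 0.05 under each setting, with higher in CT45A1-overexpression drawn to the right of 0 and lower to the left. Centring on the array median gives 25 lower and 3 higher, against 5 higher as reported. Leaving out overexpression array 1 or 2 or the variance trend gives 0. Of all tested probe sets, 10.8% pass after centring and 3.23% as reported. In the settings that give 0, the shares are 0.818%, 0.589% and 0.0145%.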

How the data were processed

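Total RNA of 6 NCI-H292 samples was hybridised to 1 array each, and groups came from the sample titles. The authors deposited a linear MAS5 intensity for every probe set and named MAS5 and affy as tools, per the submitters' processing notes; their versions and a genome build are not given in the sources used here. Each array had a 2% trimmed mean of 500.1. The log2 of each intensity was used with no offset added. After removing 62 control probe sets, those above the array median on at least 3 arrays were fitted with limma (1 mean per group, eBayes with a variance trend), two-sided, with Benjamini-Hochberg adjustment over 27618. Symbols came from the platform annotation, which can be old, updated through RefSeq. Probe sets ending in _s_at or _x_at can match several transcripts.

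The members and gene lists were chosen with earlier results of these data known. The text names every chaperone probe set past the threshold, and in each family the 4 brightest genes, the 3 with the smallest p at the brightest probe set, and the heat shock factors; HSPA1L, HSPA6 and HSPB8 are named in any case. Other values describe these genes' further probe sets. From each list of related genes up to 3 with the smallest p are named; HSPA5 and the second CCT2 probe set were added after their values were seen.

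The model was tested on simulated data drawn from the observed means and spread, with 200 of 27618 probe sets changed. It recovered 16.4% of those changed 1.5-fold, 50.7% at 2-fold and 80.3% at 4-fold, and 2 of 100 calls were false. Over the array as a whole, differences of 1.5-fold were therefore mostly missed. The share recovered among the chaperone probe sets, which are brighter than most, was not tested. The number of arrays limits the precision. Motifs were sought in Python. Protein features were not examined. Alternatives were other scalings, filters, an offset, a replicate block, robust eBayes, a fit with no variance trend, the actin 3′/5′ ratio in the model, other probe set choices and leaving out each array. R 4.3.3, limma 3.58.1 and Python 3.11.15 were used.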

Additional observations from a re-analysis of the deposited data

How the results depend on the processing

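Against 5 chaperone probe sets as reported, 28 passed after centring on the array median, 2 with no filter and 0 without the variance trend (36 at an unadjusted p of 0.05). When names ending in _x_at or _s_at were left out 1 passed, and with the mean of each gene's probe sets 3 genes did. In that order, 10.8%, 0.89%, 0.0145%, 2.59% and 2.84% of all tested probe sets or genes passed, against 3.23% as reported. Leaving out 1 array gave 0 to 6, where 0.589% to 4.33% of all tested probe sets passed. Without the variance trend 4 probe sets of the whole array passed. The labels do not say whether the replicate numbers pair the samples. Deviations of same-numbered arrays correlated by -0.011 to 0.10, and those of differently numbered arrays by -0.10 to 0.11. With 3 arrays per group these values cannot decide it. With the replicate block 9 passed, 8 higher and 1 lower (an HSP90AA1 probe set), including all 5 reported, and 4.31% of all tested probe sets passed. The median difference, 0.021 as reported, was -0.124 after centring, -0.0139 with the filter at the 75th percentile, 0.0616 when those endings were left out and 0.0480 with the mean of each gene's probe sets; leaving out 1 array gave -0.00081 to 0.0430. Of 1435 alternatives of the 89 named probe sets, 1253 kept their direction and side of the threshold, 41 lost a call, 38 gained one, and 103 changed sign without a call in either setting. Causes were not tested. Probe sets near the array median, such as that of DNAJB13 and the dimmer one of HSPB8, have wide intervals.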
